A study of Rattus norvegicus with 4 samples.

Results

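The annexins and galectins of a rat macrophage line were followed across 4 cultures exposed to titanium dioxide. The set holds 10 genes, 8 annexins (Anxa1, Anxa2, Anxa3, Anxa4, Anxa5, Anxa6, Anxa7 and Anxa11) and 2 galectins (Lgals1 and Lgals3). Array probes were assigned to them by the accession each probe carries, without version, looked up in a table of rat genes. This gave 12 probes printed at 41 spots, among 16581 named genes in all. NR8383 is a cell line of alveolar macrophages that was started from the lung lavage of a normal rat. The exposed group, labelled NM105, received the anatase and rutile mixture P25 for 4 h, at 3 cm2 of particle surface per cm2 of culture, and cells had been through 20 passages. The study design also had untreated cultures, which were not analysed here, so the 4 arrays form 1 group and no value below is a response to the particles. The arrays show which of these genes gave signal in exposed cells and how far the replicate cultures differed.

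Annexins bind phospholipid membranes when calcium rises, through a conserved core of repeats, and take part in membrane repair, vesicle traffic and the control of inflammation. Galectins bind sugars that carry beta-galactose, on the cell surface and, once a vesicle breaks, on the inner face of its membrane. In macrophages, galectin-3 was first known as the surface antigen Mac-2, and annexin A1 is known as a mediator of the anti-inflammatory action of glucocorticoids.

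Signal well above background, by Agilent's flag for each spot, was found for all 10 genes in every replicate. Among all named genes, 35.2% passed in the same way. The 10 genes were put together with earlier results of these arrays known, so their complete detection is a description and no sign that the families stand apart. Of the 12 probes, 11 passed on all 4 arrays, and 1 of the 2 Anxa3 probes passed on none. Both Anxa3 and Lgals3 had 2 probes, and the other members had 1. The reference table lists 8 pseudogenes named after Anxa2, 4 after Anxa7 and 1 after Lgals1. Whether these probes also bind such transcripts was not tested.

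**Figure D1:**
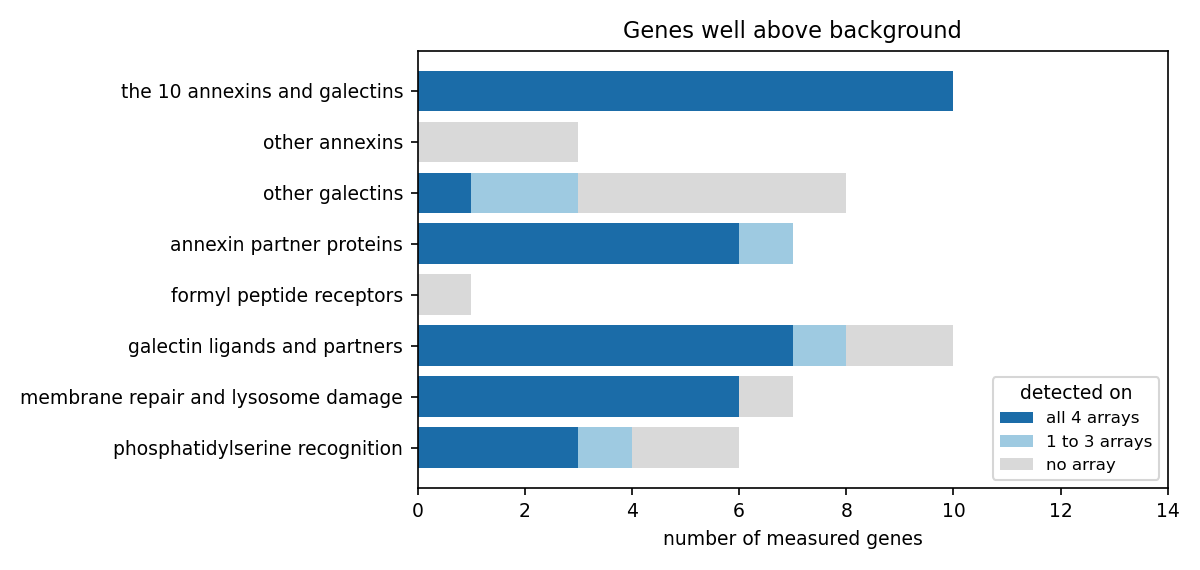
Number of measured genes (horizontal axis) well above background on all 4 arrays, on 1 to 3 arrays or on no array, for the 10 annexins and galectins and for 7 lists of relatives and partners. All 10 annexins and galectins, chosen with earlier results of these arrays known, lie in the first class. None of 3 other annexins does, and 35.2% of all named genes do.

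Levels are given as log2 of the processed signal over a reference of the same array, the 75th percentile of probes detected on all 4 arrays. Replicates 1 to 4 had references of 1431, 585, 767 and 831 intensity units. A level places 1 gene on different arrays. It does not rank genes, because each probe has its own brightness. The arrays lay on 1 slide, and a difference between them can come from culture, extraction, labelling or hybridisation, which cannot be told apart here. In whole cultures, fewer cells of a kind and less RNA per cell cannot be told apart either. Per the labels, the replicates are biological.

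The cells carried the signal of macrophages. Of 13 measured macrophage markers 10 were detected on all 4 arrays, among them Cd68 at 2.28 ± 0.14 and the lysozyme gene Lyz2 at 4.48 ± 0.16 (SD, n = 4). The mannose receptor gene Mrc1 passed on 1 array. The surface antigen gene Adgre1 and the scavenger receptor gene Cd163 were detected on none. None of 8 epithelial, 4 T cell or 2 B cell markers passed on any array, and Col1a1 was the only one of 6 fibroblast markers to pass on any, on 1 array. Their part in the results below was not tested. Summed over the macrophage markers, replicates 1 to 4 gave 89835, 38211, 48392 and 50812 intensity units. These sums are not scaled, and their order is that of the array references, 1431, 585, 767 and 831 units. The unscaled sum of the 8 epithelial markers, none of them detected, lay between 32.2 and 37.0 units on all 4 arrays. Of 4 neutrophil markers, Camp passed on all 4 arrays, S100a8 on 2 arrays and the other 2 on none.

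The upstream sequences of 3 members are shown because these genes carry the contrast described below: Anxa1 had the highest SD between arrays, Anxa5 followed the same order of arrays, and Anxa2 had the lowest SD. Each window runs from 250 bases before to 50 bases after the gene's start and is taken from RefSeq on the GRCr8 assembly, written 5′ to 3′ on the strand of the gene. Capitals mark matches on either strand to 4 short motifs: the TATA box core TATAAA, the CCAAT box, the GC box GGGCGG and the AP-1 motif TGANTCA. These windows were matched for 7 of the 10 genes.
Anxa1 (chr1:227303683-227303982, minus strand): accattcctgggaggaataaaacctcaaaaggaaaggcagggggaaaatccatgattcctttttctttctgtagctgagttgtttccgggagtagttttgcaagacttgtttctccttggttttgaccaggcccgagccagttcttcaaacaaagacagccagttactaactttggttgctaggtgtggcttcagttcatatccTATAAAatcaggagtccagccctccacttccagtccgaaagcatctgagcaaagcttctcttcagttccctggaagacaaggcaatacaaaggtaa
Anxa2 (chr8:78986002-78986301, plus strand): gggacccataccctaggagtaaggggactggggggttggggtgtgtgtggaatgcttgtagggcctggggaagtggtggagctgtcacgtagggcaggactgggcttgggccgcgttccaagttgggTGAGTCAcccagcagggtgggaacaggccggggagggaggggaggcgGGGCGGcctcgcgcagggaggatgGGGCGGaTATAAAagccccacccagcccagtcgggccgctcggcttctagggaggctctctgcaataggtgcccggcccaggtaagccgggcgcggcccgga
Anxa5 (chr2:121272647-121272946, minus strand): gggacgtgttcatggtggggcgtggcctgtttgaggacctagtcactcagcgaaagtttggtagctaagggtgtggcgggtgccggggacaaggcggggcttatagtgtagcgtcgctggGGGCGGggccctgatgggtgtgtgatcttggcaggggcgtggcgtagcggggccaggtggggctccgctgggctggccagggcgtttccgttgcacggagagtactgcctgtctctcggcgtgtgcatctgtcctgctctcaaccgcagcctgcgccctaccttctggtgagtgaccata
The Anxa1 window holds 1 TATA box core that begins 46 bases before the start, has a GC content of 45.0%, and contains 3 CpG dinucleotides. The Anxa2 window holds 1 TATA box core 45 bases before the start, 2 GC boxes and 1 AP-1 motif, with a GC content of 68.0% and 17 CpGs. The Anxa5 window holds 1 GC box and none of the other motifs, with 64.3% GC and 20 CpGs. Over 33469 promoter windows of the same length, the TATA box core was found in 14.2%, the CCAAT box in 37.5%, the GC box in 33.1% and the AP-1 motif in 7.33%, and the median GC content was 51.7%. Of the 7 members with a window, 6 held a GC box, 2 a TATA box core, 2 a CCAAT box and 1 the AP-1 motif. A match says only that these letters are present.

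Anxa1, which encodes a phospholipid-binding protein that signals through formyl peptide receptors, had the highest SD among the 10 genes. Its probe gave 5897, 1309, 1816 and 2983 intensity units on replicates 1 to 4. On the level scale these were 2.04, 1.16, 1.24 and 1.84 on replicates 1 to 4, with a mean of 1.57 ± 0.44 (SD, n = 4). Replicates 1 and 4 lay high and replicates 2 and 3 low, with the highest array 1.84-fold above the lowest. The probe was printed at 10 spots, and the difference between arrays was larger than the spread of these spots (limma moderated F, adjusted p = 2.73e-22). The 10 spots of replicate 4 ran from 1.73 to 1.93 and those of replicate 3 from 1.16 to 1.35, so these arrays did not overlap. Spots of replicates 1 and 4 overlapped, as did those of replicates 3 and 2. Lgals3 had the higher SD, 0.42 against 0.40 for Anxa1, when the median of detected probes was the reference, and 0.44 against 0.39 when the 75th percentile of all probes was. In the main scaling the SD of Anxa1 was higher than that of 90.6% of all detected named genes, and of 95.1% of the 346 genes whose mean level lay within 0.5 of its own.

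Spots of a probe share the RNA of 1 culture. The limma p-values therefore say that arrays differ beyond spot noise, and nothing about conditions. The test could be run on the 5 members printed at 2 or more spots (Anxa1, Anxa4, Anxa5, Lgals1 and Lgals3). All 5 had a limma adjusted p under 0.05, against 85.2% of the 1594 probes tested, so the count is near the share for the whole array. With the further demand that the highest array be at least 2-fold above the lowest, limma called 0 of the 5, against 4.64% of all probes, while all 5 had an unadjusted p under 0.05. Over the 10 genes, also without a test, the range over arrays reached 2-fold in none, against 8.96% of 5824 detected named genes. Anxa1 reached 2.05-fold under quantile normalization, and Lgals3 2.05-fold when all probes set the reference.

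**Figure D2:**
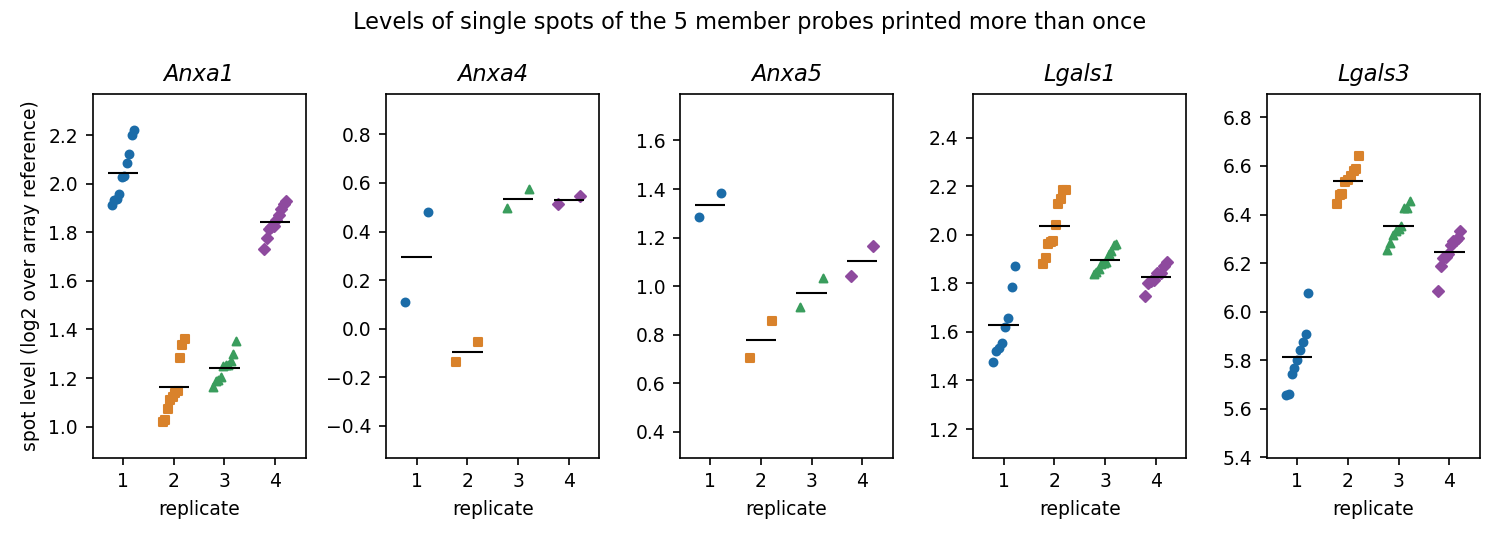
Level of each spot (vertical axis, log2 over the array reference, each panel 1.5 units high) on replicates 1 to 4 for the 5 genes printed at several spots. Points are spots, drawn from low to high within a replicate, outlier spots are left out and black lines are means. Anxa1 lies high on replicates 1 and 4, while Lgals1 and Lgals3 lie lowest on replicate 1.

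Anxa5, whose product binds phosphatidylserine exposed on dying cells, followed the same order of arrays as Anxa1. Its levels were 1.34, 0.78, 0.97 and 1.102 on replicates 1 to 4, with a mean of 1.05 ± 0.23. Replicate 1 was highest and replicate 2 lowest, 1.47-fold apart (limma adjusted p = 0.00438). The 2 spots of each array did not overlap those of any neighbour in the order 1, 4, 3 and 2. Replicates 4 and 3 were barely apart, with the lowest spot of replicate 4 at 1.040 and the highest of replicate 3 at 1.033. Over all detected named genes, replicate 1 was highest for 37.8% and replicate 2 lowest for 32.2%. The share of genes with the full order was not counted. Anxa11, which binds the calcium sensor S100A6, was also highest on replicate 1, with levels of 3.22, 2.91, 2.74 and 2.88 and a mean of 2.94 ± 0.20. It was printed at 1 spot, as were Anxa2, Anxa3, Anxa6 and Anxa7, so limma could not be run on these 5 genes. The SD of Anxa11 was 0.20 here, 0.33 under quantile normalization and 0.087 without replicate 1.

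Anxa4, an annexin best known from epithelia, stood apart on replicate 2. Its levels were 0.29, −0.10, 0.53 and 0.53 on replicates 1 to 4, with a mean of 0.32 ± 0.30. The highest array was 1.55-fold above the lowest (limma adjusted p = 0.00585). The 2 spots of replicate 2 lay below those of the other arrays. The call was lost without replicate 2 (limma adjusted p = 0.229, SD 0.14) and under normexp background correction, which fits background and signal of each spot by a model (limma adjusted p = 0.304). After normexp the highest array was still 1.52-fold above the lowest, with an SD of 0.30.

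Anxa2, which forms a complex with S100A10 at the plasma membrane, had the lowest SD between arrays. Its probe gave 34325, 14532, 19240 and 20068 units on replicates 1 to 4. After scaling, its levels were 4.58, 4.63, 4.65 and 4.59, with a mean of 4.62 and an SD of 0.031. The arrays lay within 1.05-fold of each other, and none of the 63 genes within 0.5 of its mean level had a lower SD. The SD depended on the scaling: it was 0.16 under quantile normalization, with replicate 1 highest, and 0.10 after normexp correction, both above the SD of Anxa7 under the same settings (0.070 and 0.073). It was 0.099 when all probes set the reference and 0.079 when the median of detected probes did, with replicate 2 highest under both. Replicate 1 was lowest here and highest under quantile normalization and normexp, so no order of arrays is given for Anxa2.

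Anxa6, an annexin with a doubled core, and Anxa7, also called synexin and known for joining membranes, were close to level across arrays. Anxa6 had levels of 0.43, 0.56, 0.46 and 0.71 on replicates 1 to 4 and a mean of 0.54 ± 0.13. Anxa7 had 0.23, 0.24, 0.23 and 0.37, with a mean of 0.27 ± 0.066. Replicate 4 was highest for both, by 0.28 over the lowest array for Anxa6 and by 0.14 for Anxa7 on the log2 scale. Only 2.71% of detected named genes had a lower SD than Anxa7. Without replicate 4 the SD was 0.064 for Anxa6 and 0.0022 for Anxa7, and with all probes as reference it was 0.19 and 0.12.

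Anxa3 lay closest to background and was read by 2 probes that disagree. The detected probe gave 85.5, 41.5, 81.0 and 75.6 units on replicates 1 to 4. That is 7.58 to 16.0 times the 99th percentile of the negative controls, against 99.9 to 16807 times for the detected probes of the other 9 genes. The levels of Anxa3 were −4.07, −3.82, −3.24 and −3.46, with a mean of −3.65 ± 0.37, and replicate 3 was highest. The error that the scanner software gave for this spot was 10.8% to 13.3% of its signal, against 10.0% for the detected probes of the other 9 genes. The other probe gave between 3.67 and 4.93 units on the 4 arrays, below the negative controls' 99th percentile on each. Both probes carry the same accession, so which of them reads the Anxa3 transcript better cannot be told from these files. After normexp correction replicate 2 was the highest array for Anxa3.

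**Figure D3:**
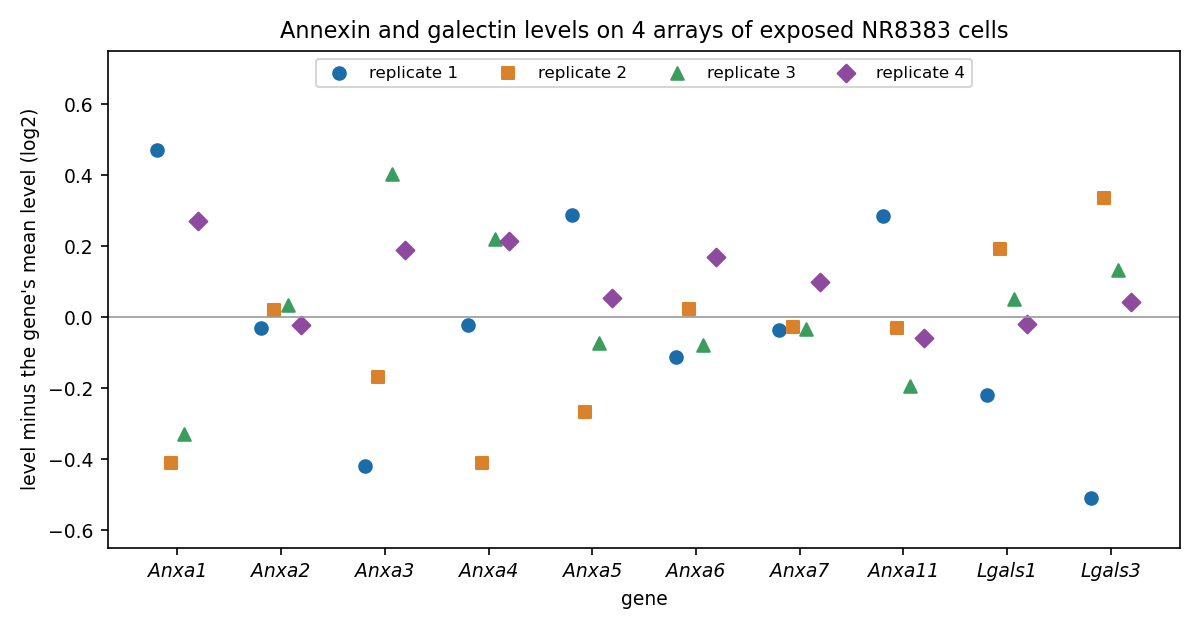
Level of each gene on each array minus the gene's mean over the 4 arrays (vertical axis, log2), for the 8 annexins and 2 galectins (horizontal axis). Points are arrays. Anxa1 spans 0.88 and Lgals3 0.85, while Anxa2 and Anxa7 stay within 0.14.

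The galectins ran the other way from Anxa1 on the first pair of replicates. Lgals1, whose product galectin-1 acts on T cells and other immune cells, gave 4420, 2401, 2856 and 2948 units on replicates 1 to 4. Its levels were 1.63, 2.04, 1.90 and 1.83, with a mean of 1.85 ± 0.17. Replicate 2 was highest and replicate 1 lowest, 1.33-fold apart (limma adjusted p = 4.03e-09). Neighbouring arrays in the order 2, 3, 4 and 1 each overlapped in their spots. The SD was 0.11 without replicate 1 and 0.11 under quantile normalization, and replicates 2 and 1 stayed highest and lowest under all scalings tried.

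Lgals3, whose product galectin-3 gathers on damaged lysosomes, was read by 2 probes with the same order of arrays. Its brightest probe gave 94528, 69441, 79120 and 80606 units on replicates 1 to 4. The levels were 6.05, 6.89, 6.69 and 6.60, with a mean of 6.56 ± 0.36. The other probe, printed at 10 spots, had levels whose mean was 6.24 ± 0.31 and was again highest on replicate 2 and lowest on replicate 1, with the highest array 1.65-fold above the lowest (limma adjusted p = 6.67e-17). On this probe the spots of replicate 1 lay below those of replicate 4 with no overlap, at a difference in means of 0.43, while the other neighbours overlapped. No spot of either probe was marked as saturated. Under quantile normalization the fold of the brightest probe was 1.40 and replicate 3 was highest. The SD of Lgals3 was 0.15 without replicate 1 and 0.21 under quantile normalization.

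Genes with a level like that of Lgals3 were also low on replicate 1. The 17 other genes within 0.5 of its mean level had median deviations of −0.44, 0.30, 0.11 and 0.03 on replicates 1 to 4. The deviations of Lgals3 itself were −0.51, 0.33, 0.13 and 0.04, and its SD exceeded that of 64.7% of the 17 genes. The part of signal strength in the Lgals3 differences was not tested further. For Anxa1 the 346 genes of like level had median deviations of −0.03, 0.04, 0.0021 and −0.0060, against −0.41 on replicate 2 and 0.47 on replicate 1 for Anxa1 itself. The 302 genes near Lgals1 had a median deviation of −0.04 on replicate 1, against −0.22 for Lgals1. On the same array Anxa2 deviated by −0.031 where the 63 genes near it had a median of −0.20, and Anxa3 by −0.42 where the 984 genes near it had 0.14.

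**Figure D4:**
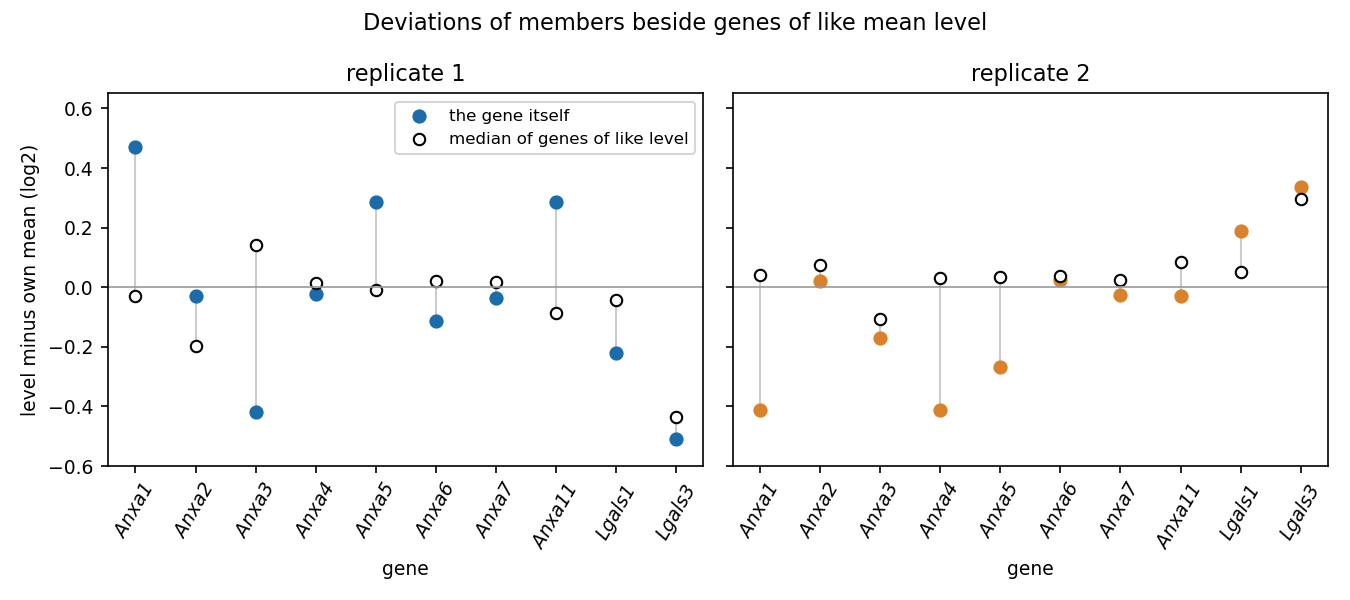
Deviation from the gene's own mean (vertical axis, log2) on replicate 1 and on replicate 2 for each annexin and galectin (filled points) and the median deviation of other detected genes within 0.5 of its mean level (open points). Lgals3 lies near its open point on both arrays, and Anxa1 lies 0.47 above 0 on replicate 1 where its neighbours lie at −0.03.

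Over the 10 genes the median SD was 0.22, against 0.23 over all 5824 detected named genes, whose 25th and 75th percentiles were 0.16 and 0.32. Which of these medians was higher changed with the setting: it was 0.28 over the members against 0.18 over all genes after normexp, 0.25 against 0.22 under quantile normalization, and 0.14 against 0.19 without replicate 1. The 10 SDs ran from 0.031 for Anxa2 to 0.44 for Anxa1. Replicate 1 was the lowest array for 6 of the 10 genes and replicate 4 for none, against 25.0% and 20.6% of all detected genes. The 6 include Anxa2 and Anxa7, whose lowest array changed with the processing, and after normexp replicate 1 was lowest for 4 of the 10 (Anxa3, Anxa6, Lgals1 and Lgals3). Between replicates 3 and 4 the median difference was 0.13 over the members and 0.16 over all genes, and between replicates 1 and 2 it was 0.35 and 0.32. No pair of arrays differed 2-fold for any of the 10 members, against 326 of the 5824 detected genes (5.60%) between replicates 1 and 2, so the count of 0 is near that share.

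**Figure D5:**
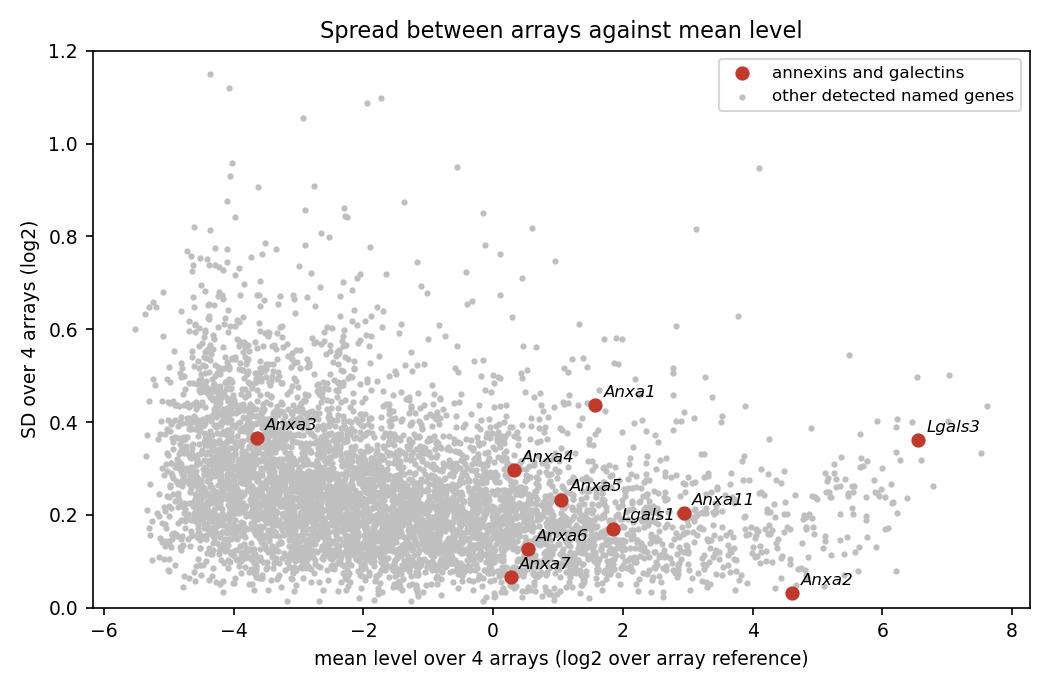
SD over the 4 arrays (vertical axis, log2) against mean level (horizontal axis, log2 over the array reference) for the annexins and galectins (red) and all other detected named genes (grey). Anxa1 lies above 95.1% of the genes of its level and Anxa2 below all 63 of its own, and 4 grey points above an SD of 1.2 are not drawn.

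The genes whose pattern over the 4 arrays was most like that of Anxa1 were Mix23, Nck1 and Caap1, by the root mean square difference of deviations among 5823 genes. The difference was 0.025 for Mix23, 0.026 for Nck1, which encodes an SH2 and SH3 adaptor, and 0.033 for Caap1. Mix23 had levels of −3.11, −4.01, −3.96 and −3.29 on replicates 1 to 4. With 4 arrays of 1 group, nothing is read from these matches.

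The other members of both families gave little signal. None of the 3 other annexins measured (Anxa8, Anxa10 and Anxa13) was detected on any array, and Anxa9 had no probe matched. Of 8 other galectins, Lgals8, which like galectin-3 binds damaged vesicles, was detected on all 4 arrays, with levels of −3.87, −4.30, −3.63 and −3.38 and a mean of −3.80 ± 0.39. Lgals12 passed on 2 arrays and Lgalsl on 1, while 5 were detected on none, among them Lgals2 and Lgals4. A gene that is not well above background may still be expressed.

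Genes of proteins that bind annexins were nearly all detected. Of 7 measured partner genes 6 passed on all 4 arrays and Dysf, the dysferlin gene of membrane repair, passed on 1. Among all named genes, 35.2% passed on all 4 arrays. This list and those below were chosen with earlier results of these arrays known, so their detection counts are descriptions. S100a10, the partner of annexin A2, was at 1.44, 1.23, 1.59 and 1.63 on replicates 1 to 4, with a mean of 1.47 ± 0.18. S100a11, the partner of annexin A1, was at 2.32, 2.32, 2.33 and 2.10, with a mean of 2.27 ± 0.11. S100a11 was lowest on replicate 4, an array on which Anxa1 was high. S100a6 had a mean of −0.72 ± 0.10 and S100a4, another ligand of annexin A2, of 3.21 ± 0.11. The median SD of the 6 detected partners was 0.11. The limma test took in 3 of them, S100a10, S100a11 and Pdcd6, and called all 3 without a fold minimum, against 85.2% of all probes tested, and none with the 2-fold range, against 4.64%. These counts are near the shares for the whole array.

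Receptors and ligands were found in part. Fpr1, a formyl peptide receptor through which annexin A1 can signal, was not detected on any array, and no probe was matched to Fpr2 or Fpr3. Of 10 measured galectin ligands and partners, 7 were detected on all 4 arrays, against 35.2% of all named genes. Lgals3bp, a secreted glycoprotein bound by galectin-3, was at 0.91 ± 0.13, the lysosomal glycoprotein genes Lamp1 and Lamp2 at −0.49 ± 0.069 and −0.33 ± 0.25, and the hyaluronan receptor gene Cd44 at 1.08 ± 0.13. Itgb1, the integrin beta 1 subunit, was highest on replicate 1 and lowest on replicate 2, at −0.98, −1.74, −1.59 and −1.30. This is the same order of means as Anxa1 and Anxa5, though Anxa1 spots overlapped between replicates 1 and 4 and between replicates 3 and 2. Lamp1 and Ptprc had this order too, over 1.12-fold and 2.12-fold, while the other detected genes of this list did not. Neither was tested by limma, and Lamp1 lay at −0.48 on replicate 3 and −0.46 on replicate 4. Among all detected named genes, replicate 1 was highest for 37.8% and replicate 2 lowest for 32.2%. How many genes had the full order was not counted. The Itgb1 levels, 1.69-fold apart, are those of its brightest probe. Its other probe was called by limma with the 2-fold range, against 4.64% of all probes tested. Havcr2, which encodes a receptor that galectin-9 binds, and Trim16, a ubiquitin ligase that works with galectin-3 on damaged vesicles, were not detected on any array.

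Genes of membrane repair and lysosome damage were detected on all 4 arrays in 6 of 7 cases, against 35.2% of all named genes. The ESCRT-associated gene Pdcd6ip was at −2.65 ± 0.28, the calpain genes Capn1 and Capn2 at 0.39 ± 0.18 and −1.06 ± 0.10, and their small subunit gene Capns1 at 0.84 ± 0.11. Tsg101, an ESCRT subunit gene, was detected on none. Of 6 measured genes that recognise phosphatidylserine, the lipid bound by annexin A5, 3 passed on all 4 arrays: Tyro3 at −1.15 ± 0.19, Mfge8 at −3.00 ± 0.28 and Cd300lf at −1.62 ± 0.25. The receptor gene Axl passed on 1 array, and the receptor gene Mertk and its ligand gene Gas6 on none.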

How the data were processed

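The 4 arrays of exposed cultures were read from scanner files made with Agilent Feature Extraction 11.0.1.1, per the file headers and the submitters' processing notes. The deposited files hold spot intensity: processed intensity, background-subtracted by the authors' software and not normalized between arrays, its error, unsubtracted medians and flags of 0 or 1. Each array held 58717 gene spots and 308 negative controls, none of the gene spots saturated. The 99th percentile of negative controls was 5.07 to 5.96 units, and precision is limited by having 4 arrays.

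Control spots and spots marked as outliers (486 to 723 per array) were left out of levels. A probe's value is the mean log2 over its spots. A probe passed on an array where over 50% of its spots were well above background, and a gene where any probe did. A gene's level is that of its brightest detected probe. Of 45598 probes, 21109 matched 16581 genes of the GRCr8 RefSeq table, used for names, promoter windows and pseudogenes. Arrays were compared by a moderated F test (limma 3.58.1, R 4.3.3), with spots as replicates and Benjamini-Hochberg adjustment over 1594 probes. In simulated data for this comparison with 1594 probes it called 98 of 100 probes shifted by 1 on the log2 scale. It called 99 of 100 shifted by 2, and 7 of 1394 unshifted ones. Unshifted simulated probes differed between arrays by spot noise alone, whereas 85.2% of the real probes were called. The 7 calls therefore say nothing about differences between replicate cultures. Python 3.11.15, pandas 2.3.3 and matplotlib 3.10.9 did the rest.

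The members, lists, tests and naming rule were chosen with earlier results of these data known. Named were all members, up to 4 detected and 2 undetected genes per list, and the 3 genes most like the most variable member. Other genes were named after their values were seen: the markers, Anxa13, Itgb1, Ptprc, Dysf, Lgals12, Lgalsl and Axl, and the 3 partners tested. Alternatives were other background correction, scaling, filters, probe rules, a position block and leaving out each replicate. The files used here hold no mean spot signal, so normexp used the median.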

Additional observations from a re-analysis of the deposited data

Results flagged for a closer look

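The level of Anxa7 on replicate 4 lay apart from the other 3 arrays. Its levels were 0.23, 0.24, 0.23 and 0.37 on replicates 1 to 4, and the gap to the nearest array made up 0.925 of the whole range, above the critical value of Dixon's test for 4 samples. The whole range was 0.14 on the log2 scale. Chance alone marks about 1 in 20 such groups, and 11 member probes were checked.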

How the results depend on the processing

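All 10 genes stayed well above background when a replicate was left out (10 to 10 genes) and when signal above the negative controls was asked for, and 9 passed when every probe of a gene had to. The count of 0 members with a 2-fold range became 1 under quantile normalization, where Anxa1 reached 2.05-fold, and 3 with a 1.5-fold minimum, and it was 0 without each replicate. Lgals3 reached 2.05-fold on its untested probe when all probes set the reference. At any fold, 5 of 5 members were called, or 4 to 5 with a replicate left out and 4 after normexp correction. Anxa4 was the member lost, without replicate 2 and after normexp. Over all 1594 probes the 2-fold count of 74 was 38 after normexp, 573 of 2319 probes without the filter on dim probes, and from 23 to 66 without a replicate, with 23 without replicate 1 and 45 without replicate 2. The median SD over members ran from 0.14 without replicate 1 to 0.27 without replicate 4, and was 0.28 after normexp, against 0.18 over all genes there. Relative to each gene's own mean over the 4 arrays, another scaling moved an array's median gene by up to 0.10 (all probes as reference). After normexp it moved by up to 0.14, and both moves were downwards on replicate 1. Levels moved by over 1 SD for 6 genes without replicate 2 and for 2 after normexp. Without replicate 2 the reference was set anew and took in probes not detected on that array. All 10 mean levels rose, and on the arrays kept each level rose by the same amount. Levels moved by over 1 SD for all 10 genes when another reference set the scale, since a level is taken over that reference. With each such reference, every mean level rose by the same amount. Over the median of detected probes, Anxa1 went from 1.57 to 3.62 and Lgals3 from 6.56 to 8.60. Under the 5 other scalings or corrections the highest array was kept by 7 to 10 of the 10 genes and the lowest by 8 to 10. Replicate 1 stayed the highest array for Anxa1, Anxa5 and Anxa11 under each of them, while the lowest array of Anxa1 became replicate 3 when all probes set the reference. Apart from the shift that a change of reference brings, the causes were not tested. No paired analysis was possible because the arrays form 1 group. Signal over background limits Anxa3 most, and 7 of 12 probes were printed at 1 spot and have no limma test.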
